A study of Mus musculus with 9 samples.

Results

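The wildtype baseline of the newborn anterior segment was described from the 3 Col4a1+/+ libraries among the 9 libraries of the series. The members were chosen by their genotype label, with earlier results of these data known, and no library of the mutant genotype entered any value. Each library measured total RNA of a pool of 4 eyes from 2 mice at postnatal day 0 (P0). The tissue was the front of the eye cut along the limbus, without the lens, so that it held the cornea, the iris, the ciliary body and the drainage structures. The strain and the sex of the mice are not given in the labels, and the wildtype mice carry no allele or treatment that the labels record. The libraries are wildtype 1, 2 and 3, and their replicate numbers are names only.

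The anterior segment is built from surface ectoderm, which gives the corneal epithelium, from neural crest mesenchyme, which gives the corneal stroma, the corneal endothelium, the iris stroma and the trabecular meshwork, and from the rim of the optic cup, which gives the pigmented epithelia and the muscles of the iris and the epithelium of the ciliary body. In the mouse at birth the eyelids are closed, the corneal epithelium is not yet stratified, the keratocytes are laying down collagen, and the drainage tissue has not taken its mature form. The ciliary epithelium secretes the aqueous humour and makes the zonule fibres that hold the lens, and the humour leaves the eye through the trabecular meshwork and Schlemm's canal.

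Reads per gene summed to 28356439, 25995340 and 26700694 in wildtype 1, 2 and 3, over 35275 genes. Levels are CPM, the count of a gene divided by its library's total and scaled to the same fixed sum in every library. A rank or sum by CPM shows shares of reads, in which a longer transcript counts for more. TPM, a like scale whose counts are first divided by the summed exon length of each gene, gives levels of different genes per length. A count of 0 allows up to 0.106, 0.115 and 0.112 CPM in the 3 libraries, taken as 3 counts, and this covers counting error only. Wildtype 1 stood apart in Gm42418, a non-coding gene model that overlaps ribosomal RNA sequence, at 45433 CPM against 663 and 708 CPM in wildtype 2 and 3. Lars2, the mitochondrial leucyl-tRNA synthetase, followed the same split, at 3173, 40.9 and 46.5 CPM. Wildtype 3 stood apart in the sex-linked transcripts. Xist, the RNA that coats the inactive X chromosome, had 0, 0 and 570 counts, and the Y-linked Ddx3y had 126, 110 and 0.0375 CPM, so no pool held both at a level above a single count. The 3 pools were thus not alike in sex-linked transcripts. The 3 pairs of libraries had Pearson correlations of log2 CPM of 0.984, 0.991 and 0.988 across 13507 genes, which are not independent replicates. Every pair differed by more than sampling noise, so each library counted as 1 replicate. The chi-square per degree of freedom was 15.3 for wildtype 2 and 3. It was 101 and 92.0 for wildtype 1 with wildtype 2 and 3, with Gm42418 and Lars2 among the genes. With 1 group of 3 pools no test was made, and each SD is the spread over these pools.

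A total of 13507 genes reached 1 CPM or more in all 3 libraries, of which 13016 were protein coding, 90 long intergenic non-coding RNAs, 85 antisense RNAs and 180 pseudogenes. These protein coding genes were 60.8% of those annotated. A mean of 10 CPM was reached by 9935 genes, 100 CPM by 1981 and 1000 CPM by 96, while 14963 genes had no count in any of the 3 libraries. The median level of the 13507 genes was 17.7 TPM. The 10 genes with the highest mean CPM took 12.8%, 9.16% and 8.32% of all counts in wildtype 1, 2 and 3. Gm42418, which is among them, took 4.54%, 0.0663% and 0.0708%. The top 100 took 25.6% ± 2.72 (SD, n = 3) and the top 1000 took 55% ± 2.02 (SD, n = 3).

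Translation and fibrillar collagen led the ranking by share of reads. The translation elongation factor gene Eef1a1 came first, with 19795, 17819 and 17969 CPM. Col1a2 and Col1a1, which encode the chains of type I collagen, had 15986, 19678 and 15799 CPM and 11982, 15870 and 12627 CPM. Wildtype 2 was the highest of the 3 for both chains. Gm42418 held the third place only through wildtype 1: its mean was 15601 CPM with that library and 686 CPM, rank 152, without it. In the fifth place was Pmel, the gene for the fibril protein of pigment granules (ENSMUSG00000025359, chromosome 10, 128704195 to 128720238 of GRCm38, plus strand), with 8031, 8345 and 8854 CPM. The 30 genes with the highest mean CPM held 5 ribosomal protein genes, 3 mitochondrially encoded genes, 4 collagen genes, 2 keratin genes and 3 genes of the pigment cell list. Further down the 30 came Sparc, a collagen-binding matrix protein (5402, 6497 and 5684 CPM), Col3a1, a chain of fibrillar type III collagen (4123, 5688 and 4796 CPM), and Igfbp2, which binds insulin-like growth factors (3708, 4233 and 3615 CPM). Gja1, the gap junction protein connexin 43, had 1985, 2124 and 2190 CPM, and Col6a2, a type VI collagen chain and the last of the 30, had 1877, 2425 and 1720 CPM. The mitochondrially encoded genes among them were mt-Co1 (6915, 6937 and 6716 CPM), mt-Nd1 and mt-Cytb, which encode parts of the respiratory chain, and the ribosomal protein genes were Rplp0, Rps14, Rpsa, Rps7 and Rps2. The elongation factor gene Eef2 had 4961, 5167 and 4665 CPM. The others were Tpt1, Ftl1, a ferritin chain, Rack1, a ribosome-bound scaffold, Actg1, the cytoplasmic gamma actin, and Hsp90ab1, a chaperone, together with genes of the tissue lists. In each library's own ranking, 24 genes were in the top 30 of all 3, and 20 genes were in the top 30 both by mean CPM and by mean TPM.

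**Figure D1:**
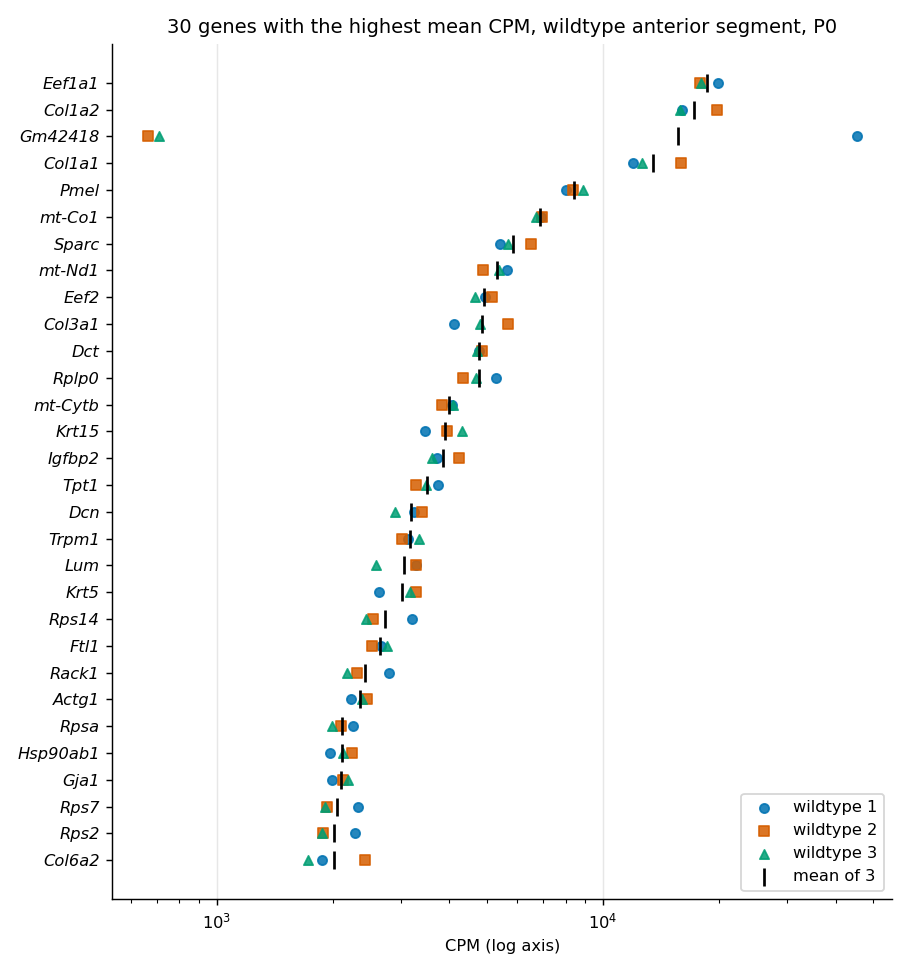
Level of the 30 genes with the highest mean CPM in each wildtype library. The x axis is CPM on a log scale, each marker is 1 library and the bar is the mean of 3; Gm42418 spans 663 to 45433 CPM, while Dct spans 4727 to 4851 CPM.

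By gene class, protein coding genes took 94.7%, 99.2% and 99.1% of the counts in wildtype 1, 2 and 3. The lower share of wildtype 1 stands beside the 4.54% that Gm42418 took there. Cytosolic ribosomal protein genes took 7.05% ± 0.510 (SD, n = 3) of the counts, and 78 of their 81 genes were at 1 CPM or more in all 3 libraries, with a median of 815 CPM. Per exon length the share was 12.9% ± 0.442 of all TPM. Among the 81 genes Rpl23a, Rpl35 and Rpl24 had means of only 23.0, 22.9 and 0.254 CPM, and the reason was not tested. Mitochondrially encoded protein genes took 2.15% ± 0.0333 of the counts, a share that moved little between the pools, and 5.70% ± 0.126 of TPM. Collagen genes took 4.49%, 5.73% and 4.65%, with 37 of 44 genes at 1 CPM in all 3, but 1.88% ± 0.330 of TPM. Keratin genes took 0.862%, 1.03% and 1.05% of the counts, from 22 of 53 genes, and 1.598% ± 0.224 of TPM. The 14 genes of the pigment cell list took 2.15% ± 0.0783 of the counts and 1.94% ± 0.144 of TPM. Histone genes took 0.277% ± 0.00369 of the counts. Crystallin genes took 0.0212% ± 0.00142 of the counts, and 0.000401% without Cryab, a small heat shock protein also made outside the lens.

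Markers of 27 tissue and state lists were then read, 387 entries for 373 distinct genes, of which 371 were in the table and 278 were at 1 CPM or more in all 3 libraries. Of all annotated protein coding genes 60.8% were at that level, and this share is the background for each list's count. In bulk tissue, fewer cells of a type and less RNA per cell cannot be told apart, and this holds for every list below. The corneal stroma list had the largest summed level, 47176, 57564 and 46662 CPM. Of its mean of 50468 CPM, Col1a2, Col1a1 and Col3a1 held 17155, 13493 and 4869 CPM. These collagen genes are not particular to the cornea, and the mesenchyme that made them was not told apart. The pigment cell list followed with 20793, 21293 and 22328 CPM and the corneal epithelium list with 9680, 11574 and 11800 CPM. Per exon length these 3 lists kept that order in each library, with 22767, 28749 and 22635 TPM, 17740, 19976 and 20440 TPM, and 14450, 18537 and 18595 TPM. At the other end, the skeletal muscle list summed to 9.73, 11.4 and 9.14 CPM. The plots of list sums and of marker levels show this range.

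**Figure D2:**
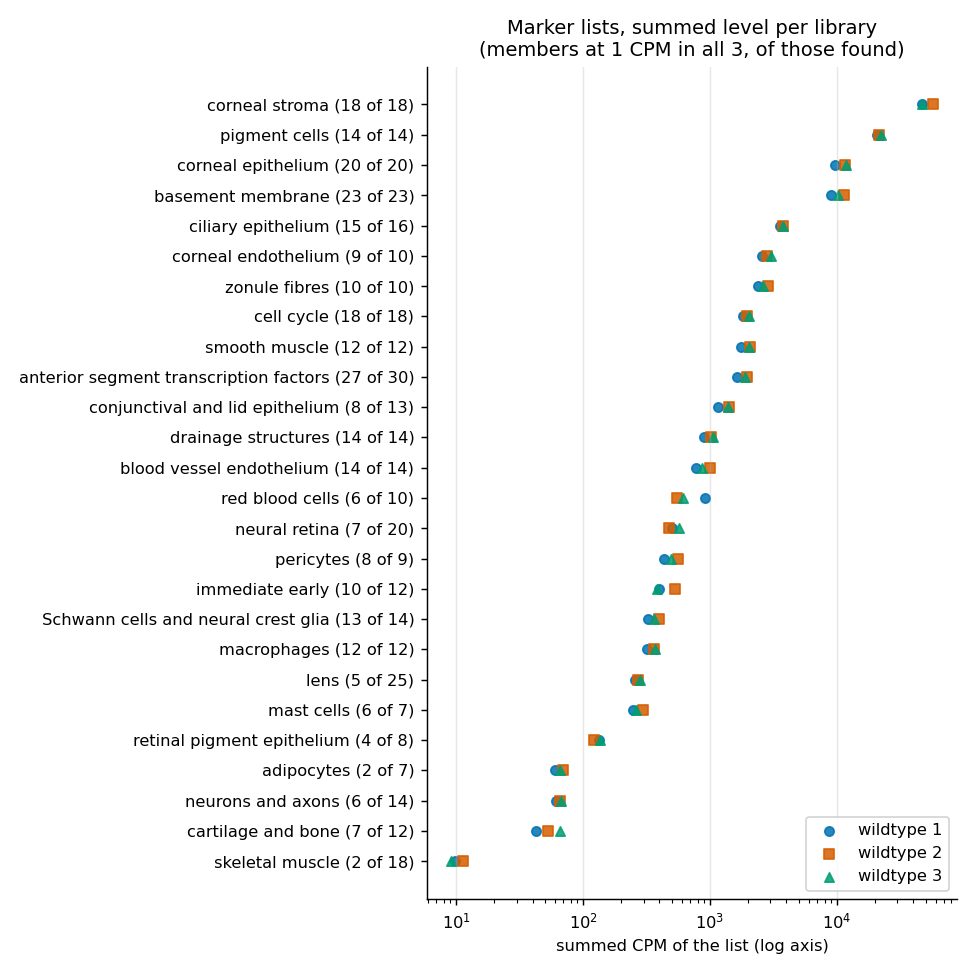
Summed CPM of each marker list in the 3 wildtype libraries, on a log x axis, with 1 marker per library. The numbers in brackets are members at 1 CPM or more in all 3 libraries, of those found; the sums run from about 10 CPM for skeletal muscle (9.14 to 11.4) to 57564 CPM for the corneal stroma.

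All 18 genes of the corneal stroma list were at 1 CPM or more in all 3 libraries, with a median of 523 TPM against 17.7 TPM over all genes at that level. Per exon length Col1a1 was highest at 6516 ± 1267 TPM, and Col1a2 (4371 ± 719 TPM) and Lum (3930 ± 525 TPM) overlapped in their ranges over the pools. The summed exon length was 12426 bases for Col1a2 and 6563 for Col1a1, against longest transcripts of 5348 and 5930 bases. In Lum both were 2448 bases, so the order and overlap of these genes depend on the length used. Lum encodes lumican and Kera keratocan, small proteoglycans that space the collagen fibrils of the cornea. Kera (ENSMUSG00000019932, chromosome 10, 97606879 to 97613692 of GRCm38, plus strand) had 2105, 2044 and 1353 CPM, and Lum had 3275, 3284 and 2587 CPM. Both were lowest in wildtype 3, as was Col5a1, while Col1a1 and Col3a1 were lowest in wildtype 1. Decorin, Dcn, another proteoglycan of this family, had 1721 ± 174 TPM, Ogn, osteoglycin, 530 ± 30.7 TPM and Fmod, fibromodulin, 255 ± 42.7 TPM. The fibril-regulating Col5a1 stood at 747 ± 137 TPM and Col5a2 at 517 ± 92.8 TPM, below type I collagen on the same scale. Tkt, a transketolase abundant in the mature cornea, had 479 ± 30.1 TPM, Ptgds, prostaglandin D synthase, 1239 ± 117 TPM, and Chst5, a sulfotransferase for keratan sulfate, 88.6 ± 12.5 TPM. The lowest member per exon length was Angptl7 at 7.17 ± 1.77 TPM, with 3.70, 5.62 and 5.28 CPM.

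The corneal epithelium list was also present in full, with 20 of 20 genes at 1 CPM or more and a median of 294 TPM. Krt15, a keratin of basal and limbal epithelium (ENSMUSG00000054146, chromosome 11, 100131758 to 100135928 of GRCm38, minus strand), had 3454, 3956 and 4317 CPM. Krt5, the basal type II keratin, had 2625, 3272 and 3155 CPM. Per exon length the order of the keratins was Krt15 (7001 ± 995 TPM), Krt5 (4350 ± 673 TPM) and Krt13 (1026 ± 131 TPM), and the ranges of these 3 did not overlap. Krt18 (731 ± 41.4 TPM), Krt6a (729 ± 109 TPM), Krt14 (680 ± 105 TPM) and Krt19 (568 ± 102 TPM) lay close together. Krt12, the keratin that marks the differentiated cornea (ENSMUSG00000020912, chromosome 11, 99415666 to 99422259 of GRCm38, minus strand), came after them with 393 ± 93.3 TPM. Its level was 176, 248 and 265 CPM in the 3 pools, with wildtype 1 well under the other two. Among other members, Perp, a desmosome protein, had 1363 ± 125 TPM, Aldh3a1, the corneal aldehyde dehydrogenase, 313 ± 45.1 TPM, and Trp63, the p63 factor of basal epithelium, 33.8 ± 9.42 TPM. Pax6, the eye field regulator, had 299, 325 and 336 CPM. All 20 genes had a mean of 10 CPM or more and 18 of them were lowest in wildtype 1, as were 5661 of all 9935 genes at that level (57.0%); with TMM scaling the counts were 16 of 20 and 3749 of 9935 (37.7%). TMM, the trimmed mean of M values, sets library sizes from the bulk of the genes and so gives little weight to Gm42418.

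Of the conjunctival and lid epithelium list, 8 of 13 genes found were at 1 CPM in all 3. That is near the 60.8% of all annotated protein coding genes, so the count says little of this tissue. Krt13, a keratin of wet stratified epithelium, had 544, 644 and 584 CPM, and Krt6a had 485, 576 and 608 CPM. The markers of dry skin were low: Krt10 had 4.97, 5.12 and 4.12 CPM, Krt1 9.10, 8.66 and 10.3 CPM, and Lor, the cornified envelope protein loricrin, 1.02, 0.962 and 1.80 CPM. Muc5ac, the goblet cell mucin, had no count in any library.

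The corneal endothelium pumps fluid out of the stroma and lays down Descemet's membrane. Of its 10 listed genes, 9 reached 1 CPM in all 3, with a median of 73.8 TPM. Col8a2 and Col8a1, the type VIII collagen chains of that membrane, had 1102, 1107 and 1260 CPM and 241, 249 and 308 CPM. Atp1b1, a sodium pump subunit gene that many tissues express, stood at 159.8 ± 15.7 TPM. Slc4a11, a transporter more particular to this cell layer, was low at 10.1, 14.0 and 16.6 CPM.

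All 23 genes of the basement membrane list, which covers type IV collagens, laminins, nidogens and heparan sulfate proteoglycans, were at 1 CPM or more. Sparc (4898 ± 677 TPM) led, followed by Col4a1 (269 ± 58.9 TPM) and Col4a2 (249 ± 61.5 TPM), whose ranges overlapped. Col4a1 had 521, 746 and 630 CPM and Col4a2 408, 621 and 529 CPM. Nid1, nidogen 1, had 234 ± 40.3 TPM and Lamc1, the laminin gamma-1 chain, 137 ± 27.6 TPM. The chains Col4a3 (3.74 ± 0.874 TPM) and Col4a4 (8.41 ± 1.54 TPM) were the lowest of the type IV collagens. Every one of the 23 genes was lowest in wildtype 1, and 22 were with TMM scaling, against the background shares of 57.0% and 37.7% of all genes. Long transcripts as a whole were lower in wildtype 1, as the length plot shows, and the part of length in this pattern was not tested.

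Pigment genes had the largest summed level of the cell type lists after the corneal stroma. In the newborn iris and ciliary body, pigment is made by the optic cup epithelium and by melanocytes of neural crest origin, and the RNA does not tell these sources apart. All 14 genes were at 1 CPM in all 3 libraries, with a median of 336 TPM, and their summed level varied by a CV (SD over mean) of 3.65%. Pmel stood at 11594 ± 931 TPM, the fifth of all genes per exon length. The melanin-synthesis enzymes Dct (4786, 4851 and 4727 CPM), Tyrp1 (1428, 1547 and 1616 CPM) and Tyr (795, 711 and 856 CPM) were high in every pool. Dct had a CV of 1.30%, where Gpnmb, a relative of Pmel, had 8.22%. Trpm1, a cation channel of melanocytes, had 3134, 3026 and 3331 CPM. Mlana, a melanosome protein, had 834 ± 69.0 TPM and Oca2, which sets melanosome pH, 221 ± 17.7 TPM. Mitf, the factor that drives these genes, had 104, 116 and 118 CPM. Kit, the receptor on melanocyte precursors and mast cells, had 18 ± 2.45 TPM, and Mc1r, the melanocortin receptor, 7.13 ± 0.307 TPM. Of the 13 genes with a mean of 10 CPM or more, 10 were highest in wildtype 3, and 6 with TMM scaling. Of all 9935 genes at that level, 40.8% and 25.1% were. Slc24a5 shares 39.5% of its exon bases with the neighbouring Myef2, and the strand setting of the counting is not known here, so its level is uncertain.

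Mitf binds a short element named the M-box, spelled TCATGTG on one of the strands. The opposite strand then reads CACATGA instead. The M-box overlaps the more common E-box motif, which has the form CANNTG. The 4 promoters below were chosen because they hold this element. The windows of Gpnmb, Kit, Mitf and Oca2 and a second window of Trpm1 hold none, and are not shown. RefSeq sequence of GRCm38.p6 was used, from 250 bases before to 50 after the gene's start, 5′ to 3′ on the gene's strand, and capitals mark the element on either strand. The windows lie at chr7:87493463-87493762 (minus strand) for Tyr, chr4:80833963-80834262 (plus strand) for Tyrp1, chr14:118052197-118052496 (minus strand) for Dct and chr7:64153585-64153884 (plus strand) for Trpm1.
Tyr: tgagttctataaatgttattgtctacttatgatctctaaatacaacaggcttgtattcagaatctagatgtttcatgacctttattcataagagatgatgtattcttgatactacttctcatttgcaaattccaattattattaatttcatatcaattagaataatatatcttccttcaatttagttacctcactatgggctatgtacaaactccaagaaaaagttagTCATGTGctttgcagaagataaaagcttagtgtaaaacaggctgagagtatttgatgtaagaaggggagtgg
Tyrp1: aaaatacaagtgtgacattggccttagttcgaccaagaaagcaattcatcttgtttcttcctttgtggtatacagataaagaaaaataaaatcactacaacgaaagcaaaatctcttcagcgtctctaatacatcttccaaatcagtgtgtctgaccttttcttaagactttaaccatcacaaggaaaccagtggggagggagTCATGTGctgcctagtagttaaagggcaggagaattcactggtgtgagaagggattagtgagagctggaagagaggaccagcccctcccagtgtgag
Dct: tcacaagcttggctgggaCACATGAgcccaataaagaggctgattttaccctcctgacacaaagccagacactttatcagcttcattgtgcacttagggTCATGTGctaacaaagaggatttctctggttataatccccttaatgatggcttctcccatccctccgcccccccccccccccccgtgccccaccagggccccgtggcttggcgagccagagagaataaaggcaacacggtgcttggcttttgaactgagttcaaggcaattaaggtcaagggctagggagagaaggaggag
Trpm1: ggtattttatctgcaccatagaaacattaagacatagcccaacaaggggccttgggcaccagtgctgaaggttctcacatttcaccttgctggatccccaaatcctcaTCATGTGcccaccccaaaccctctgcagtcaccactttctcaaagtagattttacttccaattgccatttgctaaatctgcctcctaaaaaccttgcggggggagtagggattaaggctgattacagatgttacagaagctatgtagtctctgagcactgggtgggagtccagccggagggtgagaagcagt
The element began at -22 from the start in Tyr, at -47 in Tyrp1, at -142 in this window of Trpm1, and at -232 and -151 in Dct. It was found in 6 of the 10 pigment list genes that the promoter table holds, the other two being Slc24a5 and Mc1r. Of all 27025 genes in that table, 4.31% held it. The E-box CACGTG was found in 1 of the 10 and in 8.09% of all genes. A match describes the letters and shows no binding. Pmel, Mlana, Slc45a2 and Gpr143 have no entry in that table and were not searched.

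The iris sphincter and dilator are smooth muscle, as is the ciliary muscle. All 12 smooth muscle genes were at 1 CPM in all 3 libraries, with a median of 41.4 TPM. Acta2, smooth muscle actin, had 661, 721 and 723 CPM and Tagln, the actin-binding protein transgelin, 289, 275 and 276 CPM. Myh11, the smooth muscle myosin heavy chain, had 276, 375 and 357 CPM and Mylk, the kinase of its light chain, 317, 440 and 424 CPM. Per exon length Acta2 (1011 ± 91.5 TPM) stood above Tagln (444 ± 8.20 TPM), and both stood above Myh11 (140 ± 27.4 TPM) and Actg2 (127 ± 17.5 TPM), which overlapped. Chrm3, the muscarinic receptor through which the sphincter contracts, was at 3.63, 5.58 and 5.24 CPM. Vessel walls express the same contractile genes. Skeletal muscle markers were near the floor: 2 of 18 genes, the troponin Tnni2 and the atrial and embryonic light chain Myl4, reached 1 CPM in all 3. Tnni2 had 2.05, 1.35 and 1.46 CPM, and the muscle regulators Myod1 and Pax7 had no count.

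Of the 16 ciliary epithelium genes, 15 were at 1 CPM in all 3, with a median of 27.5 TPM. Aqp1, a water channel of the ciliary epithelium also made by other cells, had 864, 826 and 790 CPM. Gja1 joins the pigmented and non-pigmented ciliary layers and is likewise made elsewhere; it stood at 647 ± 56.2 TPM. More particular markers were Col9a1 (124 ± 11 TPM), whose product is in the inner ciliary layer and vitreous, Bmp7 (73.0 ± 5.92 TPM), a growth factor, and Otx1 (41.5 ± 5.77 TPM), a factor of the ciliary body. Zic1 had 11.9, 4.27 and 14.2 CPM, lowest in wildtype 2. Optc, the secreted proteoglycan opticin of the ciliary epithelium, was at 3.91, 2.31 and 2.66 CPM, and Aqp4 was the member under 1 CPM, with 23, 18 and 17 counts.

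The 10 zonule fibre genes found were all at 1 CPM in all 3 libraries, with a median of 84.2 TPM. They are not particular to the zonule, and which cells made these transcripts was not tested. Mfap2, a microfibril protein, led with 1462 ± 150 TPM. Lox, the enzyme that crosslinks elastin and collagen, had 459 ± 61.3 TPM and Fbln5, fibulin 5, 214 ± 23.5 TPM. Fbn2, fibrillin 2, the fibrillin prominent before birth, had 169, 246 and 255 CPM, and Fbn1 had 87.4, 125 and 130 CPM. Per exon length Fbn2 (53.6 ± 13.2 TPM) was above Fbn1 (29.9 ± 7.14 TPM), and their ranges did not overlap.

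The drainage list had 14 of 14 genes at 1 CPM in all 3, yet a median of 15.2 TPM, under the 17.7 TPM of all genes at that level. Members with high levels were not particular to the meshwork: Mgp, matrix Gla protein, had 633 ± 92.7 TPM and Cyp1b1, a cytochrome P450 linked to childhood glaucoma, 95.6 ± 10.1 TPM. Edn3, endothelin 3, had 84.3 ± 8.23 TPM. Markers of mature meshwork were low, with Myoc, myocilin, at 1.48, 1.65 and 3.45 CPM and Chil1 at 1.48, 1.23 and 1.76 CPM. Tek, the angiopoietin receptor Tie2, had 17.6, 26.5 and 21.4 CPM and its ligand gene Angpt1 had 22, 24.5 and 31.0 CPM. Prox1, which defines lymphatic endothelium and appears in the forming Schlemm's canal, was at 1.09, 2.81 and 1.27 CPM.

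**Figure D3:**
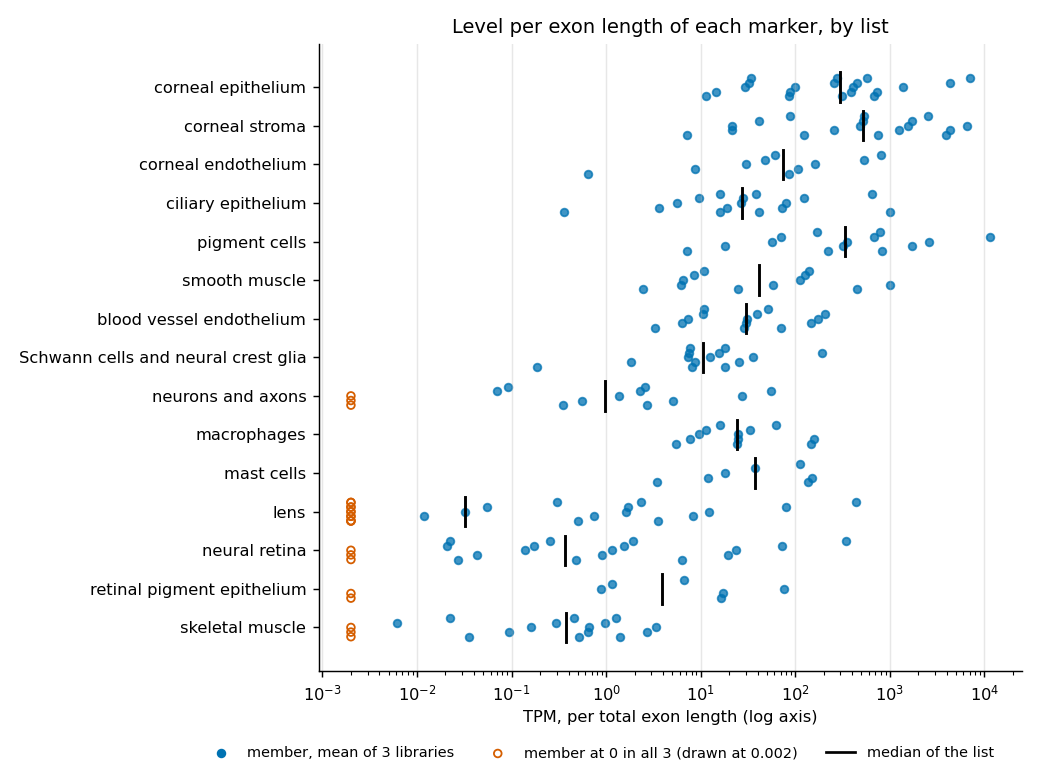
Mean level over 3 libraries of each marker in 15 lists, in TPM on a log x axis. Each point is 1 gene, open points are genes with no count in any library and the bar is the list's median; the corneal stroma bar lies at 523 TPM, the neuron bar at 0.969 TPM and the lens bar at 0.0325 TPM.

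Blood vessel endothelium was present in all 3 pools, with 14 of 14 genes at 1 CPM and a median of 30.4 TPM. Cldn5, the tight junction protein of endothelium, had 97.4, 85.4 and 97.2 CPM, and Erg, an endothelial factor, 170, 232 and 172 CPM. Plvap, the protein of fenestrated endothelium, had 147 ± 27.5 TPM, Cdh5, the junction cadherin, 70.9 ± 15.0 TPM and Pecam1 30.6 ± 7.87 TPM. Of the pericyte list, 8 of 9 genes reached 1 CPM in all 3, led by Ndufa4l2 (111 ± 22 TPM), Pdgfrb, the platelet-derived growth factor receptor (69.5 ± 15.7 TPM), and Notch3 (58.2 ± 7.20 TPM). Of 10 genes of lymphatic endothelium, listed after their values were seen, 8 had a mean of 10 CPM or more. Of these 8, 5 were highest in wildtype 2 and 3 in wildtype 3, against 41.1% and 40.8% of all genes at that level. Mmrn1 had 6.14, 25.5 and 3.71 CPM and Lyve1 9.31, 22.5 and 9.44 CPM. Flt4, the receptor for lymphatic growth factors, had 14.0, 24.6 and 13 CPM. Ccl21a, with a mean under 10 CPM and so outside those 8, had 2.86, 12.5 and 1.61 CPM. Without wildtype 2 the mean of Mmrn1 fell from 11.8 to 4.92 CPM. Pdpn, another gene of that list that corneal and other epithelia also express, was among the 3 highest in wildtype 3, at 191, 205 and 210 CPM. The conjunctival and lid list, whose tissue adjoins the limbus, summed to 1168, 1404 and 1381 CPM. Any link of these sums to the lymphatic levels was not tested.

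Nerve tissue was read from a glia list and a neuron list. The cornea is densely innervated, but the cell bodies of its sensory neurons lie in the trigeminal ganglion outside the dissected tissue. Of the Schwann cell and glia list, 13 of 14 genes reached 1 CPM in all 3, with a median of 10.6 TPM. Sox10, the neural crest and Schwann cell factor that melanocytes share, had 29.8, 41.2 and 31.3 CPM, and Erbb3, the neuregulin receptor, 38.8, 55.7 and 49.0 CPM. Egr2, the factor of myelinating Schwann cells, was near the floor, with 6, 10 and 0 counts. Of the neuron list, 6 of 14 genes reached 1 CPM in all 3, with a median of 0.969 TPM. Gap43, a growth cone protein that Schwann cells also make, was highest per exon length and had 26.9, 29.7 and 23.6 CPM, and Uchl1 had 15.2, 11.7 and 15.4 CPM. Nefh, Trpm8 and Scn9a, the latter 2 being channels of sensory neurons, had no count in any library. Nefl and Nefm share exon bases in the annotation, 32.8% of those of Nefl, so their split of reads is uncertain.

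Macrophage genes were all at 1 CPM or more, 12 of 12, with a median of 24.4 TPM. The complement genes C1qa, C1qb and C1qc had 160 ± 11, 145 ± 12.4 and 62.4 ± 3.99 TPM, and Csf1r, the receptor that macrophages need, had 35, 46.9 and 50.7 CPM. Mast cell protease genes reached like levels, with Cpa3 at 151 ± 25.4 TPM, Tpsb2 at 136 ± 17.6 TPM and Cma1 at 111 ± 12.5 TPM. Cpa3 had 67.1, 83.3 and 66.7 CPM, so mast cell transcripts were there in every pool. Fcer1a, the chain of their IgE receptor, was at 1.66, 0.539 and 1.09 CPM.

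Red blood cell transcripts varied more than those of any tissue list but the sex-linked one. The list summed to 910, 549 and 615 CPM, a CV of 27.9%, highest in wildtype 1. Hbb-bs, adult beta globin, had 514, 302 and 357 CPM, and Hba-a1 had 291, 183 and 183 CPM. The split of reads between Hba-a1 and its close copy Hba-a2 is uncertain. The embryonic globins differed more. Hbb-y had 311, 25 and 7 counts, and the embryonic genes were 1.35% of globin counts in wildtype 1 (337 of 25008, 95% exact binomial interval 1.21 to 1.498), 0.241% in wildtype 2 (0.166 to 0.338) and 0.0761% in wildtype 3 (0.0393 to 0.133). These intervals cover counting error only and do not overlap.

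Tissues that the dissection left out were checked by their own lists. Of 25 lens genes, 5 reached 1 CPM in all 3 and 11 had no count in any library. Cryaa, alpha-A crystallin, had 1.83, 1.19 and 1.57 CPM, Crygd 0.564, 0.731 and 0.375 CPM and Mip, the main water channel of lens fibres, 0.458, 0.423 and 0.637 CPM. Most of the list's 255, 269 and 281 CPM came from Cryab, at 191, 212 and 219 CPM, and from Bfsp2, a beaded filament protein of lens fibres, at 44.5, 41.2 and 42.7 CPM. Bfsp2 thus stood at 79.4 ± 0.610 TPM beside 8.28 ± 1.02 TPM for its partner Bfsp1. Of 20 neural retina genes, 7 reached 1 CPM in all 3. Rlbp1, the retinaldehyde-binding protein, had 314, 289 and 367 CPM, Lhx2, a factor of the optic cup, 99.7, 97.5 and 104 CPM, and Rbp3, the retinoid-binding protein between photoreceptors, 37.6, 42.2 and 38.8 CPM. The iris and ciliary epithelia also come from the optic cup and were in the tissue. The source of the Rlbp1 and Lhx2 transcripts was thus not told apart. Crx and Nrl, factors of photoreceptors, had 0 to 10 counts, and Rcvrn, Pou4f2 and Ptf1a had none. Otx2, a factor of pigment epithelium and photoreceptors, had 106, 94.7 and 105 CPM, while Rpe65 and Rgr, an enzyme and an opsin of the visual cycle in the retinal pigment epithelium, had no count. Cartilage and bone genes summed to 42.5, 53.4 and 65.8 CPM, with 7 of 12 at 1 CPM, near the 60.8% of all annotated protein coding genes. Fat cell genes summed to 60.1, 69.7 and 65.6 CPM, of which Lpl, a lipoprotein lipase also made by other cells, had 57.4, 66.6 and 62.9 CPM.

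Of 30 transcription factors of anterior segment development, 27 were at 1 CPM in all 3, with a median of 13.5 TPM. Twist1, a mesenchyme factor, stood at 157 ± 17.6 TPM. Tfap2b, a neural crest factor needed for the corneal endothelium (86.6 ± 16.9 TPM), Pax6 (86.5 ± 8.28 TPM) and Eya2 (80.8 ± 14.7 TPM) overlapped each other. Foxc1, whose loss disturbs the drainage angle, had 79.0, 125 and 105 CPM and Foxc2 7.97, 13 and 13.2 CPM. Pitx3, Sox2 and Foxe3 were under 1 CPM; Pitx3 and Foxe3 are lens factors, and Foxe3 had 4, 0 and 3 counts.

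All 18 cell cycle genes were at 1 CPM in all 3, with a median of 35.5 TPM. Cdkn1c, a cyclin-dependent kinase inhibitor, was highest per exon length and had 777, 864 and 870 CPM. Pcna, the replication clamp, had 105, 88.3 and 108 CPM, and Mki67, the proliferation antigen, 30.2, 47.4 and 37.2 CPM. Immediate early genes, which rise within minutes of handling or injury, summed to 396, 531 and 384 CPM. Fos had 32.6, 54.8 and 24.3 CPM and Egr1 50.04, 83.6 and 53.8 CPM. Of the 8 immediate early genes with a mean of 10 CPM or more, 7 were highest in wildtype 2, both by library total and with TMM scaling; of all 9935 genes, 41.1% and 37.6% were.

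Among 9935 genes with a mean of at least 10 CPM, the median CV over the 3 libraries was 9.40%, where counting error alone gives 2.99%, and 93.0% of genes had a CV above that of counting. The 5th and 95th percentiles were 2.46% and 22.2%, 92.0% of genes had a CV under 20%, and 9 genes had one over 50%. The common biological coefficient of variation estimated by edgeR was 0.117, and 0.104, 0.105 and 0.136 without wildtype 1, 2 and 3. The median CV was 6.29%, 7.69% and 9.47% when wildtype 1, 2 and 3 were left out in turn. A CV over fewer libraries does not compare directly with the 9.40% over 3. Leaving out the sex-linked genes, 4 genes that escape X inactivation, Gm42418 and Lars2 left the median over 3 libraries at 9.40%. Among the 20 most variable genes were Lars2 and the Y-linked Ddx3y, Eif2s3y, Kdm5d and Uty, and Mmrn1, Lyve1 and Flt4 of lymphatic endothelium. Further ones were Fos, Zic1, Sox7, an endothelial factor (8.92, 18.2 and 10.3 CPM), Notch1, a receptor (22.2, 51.2 and 33.9 CPM), Muc4, a surface mucin (11.2, 25.7 and 23.0 CPM), and Slc16a10, a transporter of aromatic amino acids and thyroid hormone (17.0, 10.5 and 23.0 CPM). The rest were Atp5k, Hectd4, Mical2, Mast4, Cntln and Coprs. Hectd4 and Mast4 were lowest in wildtype 1, at 12.1 and 15.4 CPM, and Coprs was lowest in wildtype 2, at 7.31 CPM. The least variable 10 were Snhg6, Aldh9a1, Abhd11, Nsmaf, Mcrip1, Ppp3r1, Gpx1, Usp5, Appl1 and Mal2, with CVs from 0.128% to 0.316%. Counting error alone gives more than this, 3.51% for Mal2, so among 9935 genes these are the closest of many sets of 3 values.

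**Figure D4:**
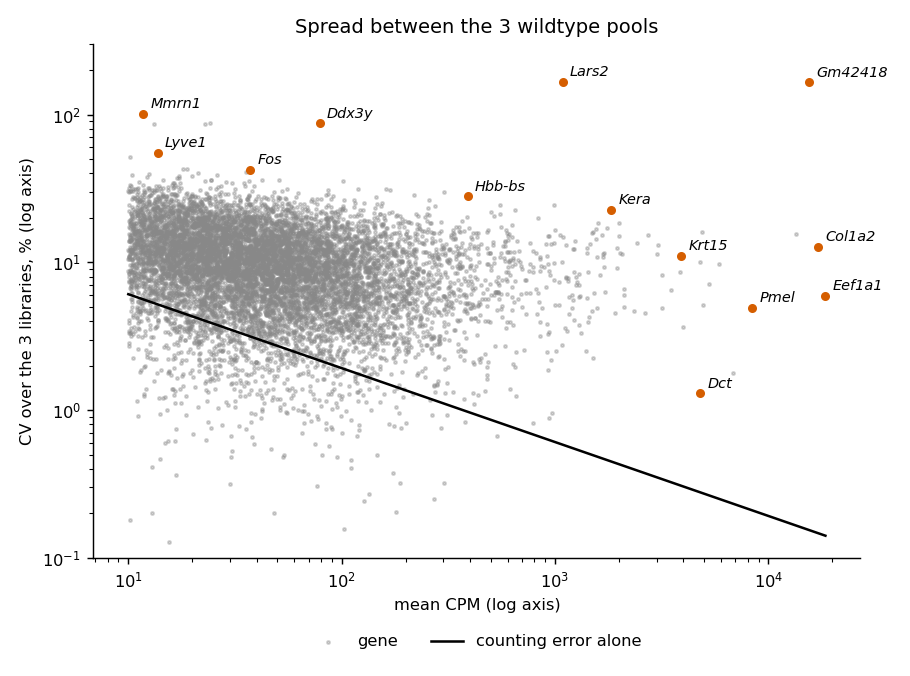
Coefficient of variation over the 3 wildtype libraries against mean CPM for 9935 genes, both on log axes. Grey points are genes, orange points are named genes and the line is the CV that counting error alone gives; the median gene lies at 9.40%, Gm42418 and Lars2 lie at 166%.

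A trend with transcript length ran through the spread. Over 9906 genes, the Spearman correlation of a library's log2 deviation with the length of the longest annotated transcript was -0.48 in wildtype 1, 0.41 in wildtype 2 and 0.083 in wildtype 3, a description across genes that share a library. With TMM scaling, transcripts up to 1 kb had a median deviation of 0.14 in wildtype 1 and -0.16 in wildtype 2 (log2), and those over 12 kb had -0.21 and 0.16. Wildtype 3 stayed between -0.01 and 0.04 in all 8 length classes. Wildtype 1, at one end of this trend, is also the library with the high Gm42418 level, and the part of either in the other was not tested.

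**Figure D5:**
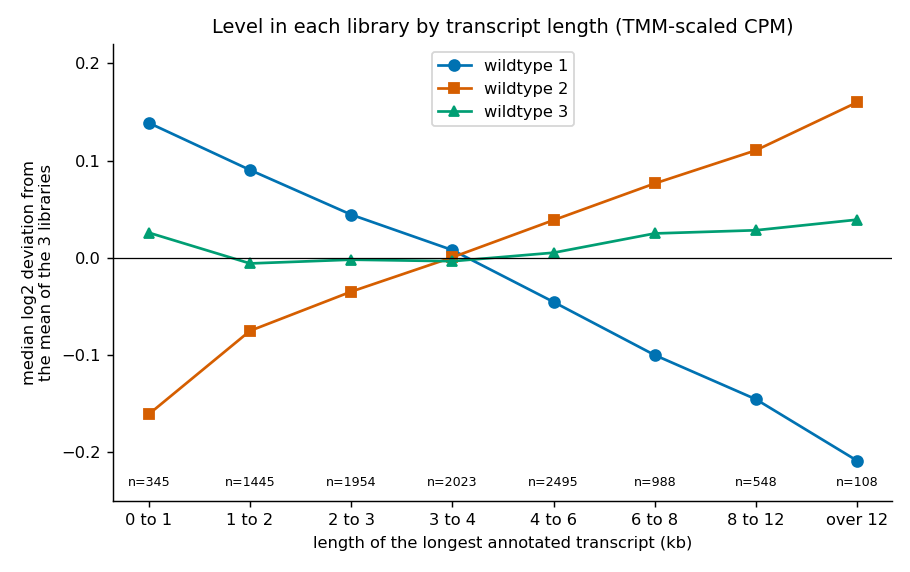
Median log2 deviation of each wildtype library from the mean of the 3, by length of the longest annotated transcript in kb, with TMM-scaled CPM. Each line is 1 library and n is the number of genes in a length class; wildtype 1 falls from 0.14 to -0.21 and wildtype 2 rises from -0.16 to 0.16.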

How the data were processed

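Bulk RNA sequencing was done on pools of dissected anterior segments, and the 3 wildtype libraries were used here. The deposited table holds unnormalized whole-number read counts by Ensembl identifier, with 1 column per library and 0 columns left without a sample. The submitters' processing notes name DESeq2 1.6.3, HTSeq 0.6.1 and STAR 2.6.1 and the mouse builds mm10 and GRCm38 without their roles. The annotation release behind the counting, like its strand setting, was not given in the sources used here. Per the labels' protocols, RNA was extracted from stabilized tissue with a micro-scale kit.

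CPM used each library's total of all genes. TPM used summed exon lengths of GENCODE M21, which held 34490 of the 35275 identifiers; the 785 others took between 0.0677% and 0.069% of counts. The CV was set beside the CV of Poisson counting alone. The common biological coefficient of variation came from edgeR 4.0.16 (R 4.3.3) with an intercept only. Simulated counts of known spread, with no length trend, were used to check the CV and not this estimate. No test was made. Exon overlap was checked for 425 named or listed genes. Of these, 34 shared exon bases with another gene at 1 CPM, and 1, Nefl, shared over 10% with a gene of higher level. Others, such as Csf1r (15.1%), Atp1b1 (18.7%), Cryab (17.0%) and Bfsp2 (11.8%), shared over 10% with a gene of lower level. Their levels are uncertain to that extent, as the strand setting is not known.

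The members and lists were chosen with earlier results of these data known, and 5 lists and 3 alternatives were added after the values were seen. Some list members are not reported here by name. Named were the 30 genes with the highest mean CPM, up to 6 members per list by TPM, members under 1 CPM by count, and the 20 most and 10 least variable genes at a mean of 10 CPM, skipping 2 clone or model names. Members named beyond this, such as Krt12, Foxc1, Myoc and Mki67, were chosen after their values were seen. Alternatives were TMM factors, DESeq2 1.42.0 size factors, a total without mitochondrially encoded genes, Gm42418 and Lars2, other minimum levels, the longest transcript as length, and leaving out each library.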

Additional observations from a re-analysis of the deposited data

How the results depend on the processing

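The median CV of 9.40% was 8.67% with TMM factors, 8.70% with DESeq2 size factors, 8.84% with the total without mitochondrially encoded genes, Gm42418 and Lars2, 11.2% for genes at a mean of at least 1 CPM and 7.17% at 100 CPM. Leaving out each library in turn gave 6.29% to 9.47%, the lowest without wildtype 1. These are CVs over fewer libraries and do not compare directly with the 9.40%. The share of the top 100 genes was 25.6% of counts and 34.5% per exon length (TPM). The ribosomal protein, collagen and keratin shares, 7.05%, 4.96% and 0.980% of counts on average, were 12.9%, 1.88% and 1.598% per exon length. The number of genes at the minimum level, 13507, lay between 13499 and 16664 under every alternative run, and the 278 listed genes between 278 and 320. With the reduced total, 30 of 444 gene levels and 3 of 32 list sums moved by more than their SD. With the longest transcript as length, 5 of 32 list medians did. The order of genes within a list was not repeated with that length. Without wildtype 1 the mean of Gm42418 fell from 15601 to 686 CPM and that of Lars2 from 1087 to 43.7 CPM. Leaving out 1 of 3 libraries cannot move a mean by more than 1 SD, so those repeats say nothing of stability. A count of 0 leaves room for a level of up to 0.106 to 0.115 CPM at this depth, taken as 3 counts. No paired analysis was possible because only 1 group was described.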

Other observations

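Some imprinted growth genes had high levels in the newborn tissue. The list was made after the values were seen. All 13 of its genes found were at 1 CPM or more in all 3 libraries, against 60.8% of annotated protein coding genes. As the values were known when the genes were picked, this count says nothing of imprinted genes as a class. H19, the maternally expressed non-coding RNA, had 1521, 1607 and 1886 CPM, and its neighbour Igf2, the fetal growth factor, had 1310, 1433 and 1556 CPM. Both were lowest in wildtype 1 and highest in wildtype 3. Mest had 573, 665 and 578 CPM, and it shares 23.1% of its exon bases with Copg2, so part of its reads is uncertain. Dlk1, an inhibitor of fat cell formation, had 287, 390 and 320 CPM, while Meg3, the non-coding RNA of the same locus, was at 2.26, 2.31 and 1.498 CPM. All 6 insulin-like growth factor binding protein genes of a second added list were also at 1 CPM. Igfbp2 stood at 6596 ± 806 TPM (SD, n = 3), above Igfbp4 (1007 ± 98.7 TPM), Igfbp7 (966 ± 99.6 TPM) and Igfbp5 (794 ± 157 TPM).

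Retinoid and thyroid hormone genes, listed in the same way, gave 8 of 9 at 1 CPM in all 3. Stra6, the retinol uptake receptor, had 249, 276 and 255 CPM. Crabp1, a retinoic acid-binding protein, had 61.1, 50.3 and 32.5 CPM, highest in wildtype 1 and lowest in wildtype 3.

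A list of 4 genes that escape X inactivation was also made after the values were seen. All 4 were highest in wildtype 3, the library with Xist, under each of the 4 scalings run. Of all 9935 genes at a mean of 10 CPM, 40.8% were by library total, 25.1% with TMM factors, 24.0% with DESeq2 size factors and 32.8% with the reduced total. Ddx3x had 386, 410 and 515 CPM and Kdm6a 22.7, 26.4 and 42.5 CPM. Their Y-linked partners were at 126, 110 and 0.0375 CPM for Ddx3y and at 34.1, 34.8 and 0 CPM for Uty.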
